A study of Homo sapiens with 2 samples.

Results

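The genes examined here are 9 neighbors of ABCB1 on chromosome 7q21: KIAA1324L, DMTF1, C7orf23, CROT, RUNDC3B, SLC25A40, DBF4, SRI and STEAP4. They were taken by their symbols, as genes that flank ABCB1 on hg19, out of the 23368 gene symbols in the files, and their levels were set against that of ABCB1. Both bulk RNA-seq libraries came from SUM159, a triple-negative breast cancer cell line of wild-type genotype by its label, kept attached in monolayer culture, that had acquired resistance through long-term treatment in which exposure to rising doses alternated with recovery without drug. The drug was doxorubicin, an anthracycline that traps topoisomerase II on DNA. The libraries are replicates 1 and 2 of this single condition, and treatment-naïve and paclitaxel-resistant cells were not analysed here, so that every value is a level in resistant cells and not a change upon resistance. A resistant population of this kind is 1 selected line, and since neither labels nor methods tie the replicates to separate cultures, p-values and SDs measure only the difference between these 2 libraries, which may be technical. DNA copy number was not measured, and a shared high level of neighbors is a description of their RNA alone.

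ABCB1 encodes P-glycoprotein, an efflux pump of the plasma membrane that expels doxorubicin, paclitaxel and many other drugs. In other drug-selected cell lines the 7q21 region is known for amplification and for rearrangements that bring ABCB1 under the control of another promoter, and neighbors of the pump are then often expressed together with it. SRI takes part of its renown from this setting, since its product sorcin was first noticed in multidrug-resistant cells. The neighbors have unrelated functions: DBF4 in DNA replication, DMTF1 in transcription, CROT and SLC25A40 in peroxisomes and mitochondria, SRI in calcium signaling and STEAP4 in metal reduction, while C7orf23 (now TMEM243), KIAA1324L (now ELAPOR2) and RUNDC3B are less studied.

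Expression was found for 8 of the 9 neighbors, and SRI, DBF4 and C7orf23 stood above ABCB1 in both libraries once levels were put on a per-length scale. Here a gene is called expressed when its counts average 20 or more over the libraries, as 52.8% of all symbols did, and STEAP4 was the exception among the neighbors. The libraries held 23044084 counts in replicate 1 and 17985508 counts in replicate 2, from which counts per 1000000 (CPM) were computed, and a CPM value was divided by the length of all annotated exons of the gene to give CPM per kb. Among the 11866 expressed genes with a known length the median was 6.39 CPM per kb, and 7 of the 9 neighbors lay above it. By decreasing mean level the order was SRI, DBF4, C7orf23, CROT, ABCB1, SLC25A40, KIAA1324L, DMTF1, RUNDC3B and STEAP4. Adjacent genes overlapped in their 2 libraries for DBF4 and C7orf23, and along the run CROT, ABCB1, SLC25A40 and KIAA1324L, so that these are not ordered beyond their spread. Divided by the canonical transcript instead, which is shorter, C7orf23 passed DBF4 and no longer overlapped with it, and KIAA1324L overlapped with DMTF1.

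**Figure D1:**
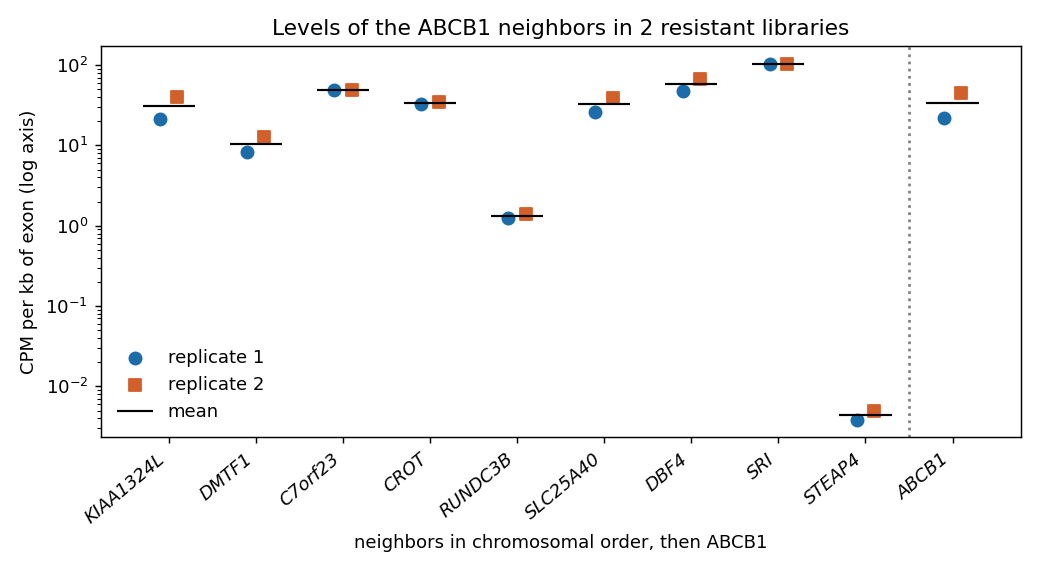
Level of each neighbor in chromosomal order, followed by ABCB1, in CPM per kb of exon on a log axis; circles are replicate 1, squares replicate 2 and bars their mean. SRI is the highest at 103 CPM per kb, ABCB1 lies at 33.4 CPM per kb, and STEAP4 lies near 0 with 1 count in each library.

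Promoters are shown as sequence because adjacent genes in this region share them. DBF4 and SLC25A40 are read in opposite directions from starts 132 bases apart in RefSeq, and CROT is read away from the long noncoding RNA gene TP53TG1 across 171 bases. SRI was added as the highest neighbor, STEAP4 as the lowest, and ABCB1 for comparison, each with the 250 bases before its start. All are from RefSeq on GRCh38.p14, are printed 5′ to 3′, and have matches to CCAAT (or ATTGG) and to GGGCGG (or CCGCCC) in capitals. SRI and ABCB1 each have another start further upstream that is not printed.
DBF4 and SLC25A40, chr7:87876361-87876492, plus strand: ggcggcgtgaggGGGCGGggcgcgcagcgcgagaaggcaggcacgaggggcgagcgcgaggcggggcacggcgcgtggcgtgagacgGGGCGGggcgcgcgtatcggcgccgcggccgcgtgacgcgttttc
CROT and TP53TG1, chr7:87345493-87345663, plus strand: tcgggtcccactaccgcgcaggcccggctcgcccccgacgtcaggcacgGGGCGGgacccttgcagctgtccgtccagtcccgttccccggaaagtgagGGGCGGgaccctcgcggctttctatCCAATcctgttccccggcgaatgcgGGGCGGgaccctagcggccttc
SRI, chr7:88220039-88220288, minus strand: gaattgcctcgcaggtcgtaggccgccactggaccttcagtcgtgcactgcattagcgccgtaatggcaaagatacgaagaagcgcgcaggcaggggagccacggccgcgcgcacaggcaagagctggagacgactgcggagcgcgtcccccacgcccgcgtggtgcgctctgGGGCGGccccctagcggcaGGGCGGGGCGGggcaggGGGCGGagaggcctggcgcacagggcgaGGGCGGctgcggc
ABCB1, chr7:87600885-87601134, minus strand: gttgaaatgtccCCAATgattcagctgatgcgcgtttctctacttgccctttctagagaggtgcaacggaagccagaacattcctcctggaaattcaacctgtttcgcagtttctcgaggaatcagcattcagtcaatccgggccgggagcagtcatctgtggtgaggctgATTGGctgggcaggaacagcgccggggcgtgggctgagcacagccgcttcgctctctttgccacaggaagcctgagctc
STEAP4, chr7:88306895-88307144, minus strand: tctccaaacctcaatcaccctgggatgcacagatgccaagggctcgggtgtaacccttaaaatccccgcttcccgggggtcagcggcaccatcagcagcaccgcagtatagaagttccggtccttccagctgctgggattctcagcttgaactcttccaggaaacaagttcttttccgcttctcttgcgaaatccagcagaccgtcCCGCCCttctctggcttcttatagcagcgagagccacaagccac
The stretch shared by DBF4 and SLC25A40 is 81.1% G and C, with 29 CpG sites in its 132 bases, and that of CROT and TP53TG1 is 71.3% G and C. SRI reaches 72.4%, whereas ABCB1 and STEAP4 are both at 55.6%, close to the median of 58% over 34941 RefSeq promoters of 250 bases. GGGCGG was matched 2 times between DBF4 and SLC25A40 and 3 times between CROT and TP53TG1, and it is held by 35.2% and 38.3% of all promoters cut to those lengths. Before SRI it was matched 5 times, with a pair of matches overlapping by 1 base. It was matched once before STEAP4 and not before ABCB1, while 42.5% of all promoters of 250 bases hold it on either strand. CCAAT was found 2 times before ABCB1, once on each strand, and 32% of all promoters of 250 bases hold it. Between CROT and TP53TG1 it was found 1 time, and 25.4% of all promoters cut to that length hold it. Each of the 9 neighbors has at least 1 window in the RefSeq promoter table that holds GGGCGG, the low genes RUNDC3B and STEAP4 among them. KIAA1324L and SRI each also have a window without it. The shares given above are of windows, and the share of all genes with at least 1 such window was not computed.

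DBF4 and SLC25A40 lie head to head and kept a nearly fixed ratio in both libraries. DBF4 is the regulatory subunit of the CDC7 kinase, which fires replication origins by phosphorylating the MCM helicase. Its locus on chromosome 7 of GRCh37 spans 87505531 to 87538868 and gave 5103 counts in replicate 1 and 5591 in replicate 2, or 221 and 311 CPM. SLC25A40, a carrier of the inner mitochondrial membrane that, with its relative SLC25A39, is tied to mitochondrial glutathione import, spans 87462883 to 87505675 of chromosome 7, with 3058 and 3529 counts, or 133 and 196 CPM. Both were higher in replicate 2, and DBF4 over SLC25A40 in CPM was 1.67 in replicate 1 and 1.58 in replicate 2. KIAA1324L over ABCB1, which lie 443 kb apart, was about as steady, at 1.21 and 1.13. CROT over TP53TG1, also a head-to-head pair, went from 2.80 to 3.37. Whether a shared start has a part in the ratio was not tested. On the scale of exon length DBF4 averaged 57.9 ± 13.8 CPM per kb and SLC25A40 32.3 ± 8.83 CPM per kb (SD, n = 2 each), against 33.4 ± 16.4 CPM per kb for ABCB1. In the GENCODE annotation, which has starts further out, their exons overlap over 145 bases on opposite strands, 3.16% of the exons of DBF4 and 2.85% of those of SLC25A40, and as the strand setting of the counting is not given, reads there cannot be assigned with certainty.

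The partners of DBF4 in replication ranged widely in level. Of 14 listed genes of origin licensing, origin firing and the replication fork, all 14 were expressed, with a median of 21.3 CPM per kb, against 6.39 CPM per kb over all expressed genes, and DBF4B and CLSPN lay below 6.39 CPM per kb. CDC7, the catalytic partner, had 866 counts in replicate 1 and 689 in replicate 2 and averaged 10.5 ± 0.143 CPM per kb (SD, n = 2), well under the 57.9 CPM per kb of DBF4. Of the helicase subunits, MCM7, also on chromosome 7, was the highest with 70.3 ± 2.87 CPM per kb, followed by MCM3 with 60.6 ± 8.65 CPM per kb (SD, n = 2 each). MCM2 had 43.9, MCM6 36.3, MCM4 30.7 and MCM5 23.3 CPM per kb on average. DBF4B, the second activator of CDC7, was the lowest of the list with 2.68 ± 0.212 CPM per kb (SD, n = 2). For SLC25A40, its paralog SLC25A39 on chromosome 17 had 5624 and 3802 counts and averaged 64.6 ± 6.55 CPM per kb (SD, n = 2), above SLC25A40 in both libraries. Of the 8 listed genes of glutathione and mitochondrial transport, GPX4, which uses glutathione to reduce lipid peroxides, was the highest with 160 CPM per kb on average, and GCLC, the catalytic subunit of glutathione synthesis, the lowest with 3.75 CPM per kb.

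SRI, or sorcin, a penta-EF-hand protein that binds calcium and modulates ryanodine receptors, was the most abundant neighbor. Its locus spans 87834430 to 87856308 of chromosome 7, 492 kb from ABCB1, and gave 10119 counts in replicate 1 and 7776 in replicate 2. These are 439 and 432 CPM, so that the libraries nearly coincided, and the per-length level was 103 ± 1.13 CPM per kb (SD, n = 2), above 93.5% of expressed genes. Over its canonical transcript of 1.97 kb the level was 221 ± 2.43 CPM per kb. Of the 12 genes listed with it, 10 were expressed. CAPNS1, the small subunit shared by calpains 1 and 2 and itself a penta-EF-hand protein, was the highest with 109 ± 17.4 CPM per kb, and ATP2A2, the calcium pump of the endoplasmic reticulum, had 30.6 ± 10.5 CPM per kb (SD, n = 2 each). Ryanodine receptors, the best known targets of sorcin, were low: RYR3 had 4 and 2 counts, RYR1 had 2 and 4, and RYR2 had 94 and 193.

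DMTF1 and C7orf23 are read toward each other and overlap at their ends, and they did not keep a fixed ratio. DMTF1, a Myb-like factor that binds D-type cyclins and activates the ARF promoter, occupies chromosome 7 from 86781725 to 86825653, with 1764 counts in replicate 1 and 2174 in replicate 2, or 76.5 and 121 CPM. C7orf23, which encodes a membrane protein and spans 86825476 to 86849903 of chromosome 7, had 3700 and 2910 counts, or 161 and 162 CPM. DMTF1 over C7orf23 in CPM was therefore 0.477 in replicate 1 and 0.747 in replicate 2. On the per-length scale DMTF1 averaged 10.5 ± 3.35 CPM per kb and C7orf23 49.3 ± 0.267 CPM per kb (SD, n = 2 each). These depend strongly on the length used, since over the canonical transcripts DMTF1 reached 26.7 ± 8.47 CPM per kb and C7orf23 152 ± 0.822 CPM per kb (SD, n = 2 each). Their exons overlap over 178 bases, 1.9% of those of DMTF1 and 5.44% of those of C7orf23, on opposite strands.

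CDKN2A, which encodes p16 and the ARF protein that DMTF1 controls, had 7 counts in replicate 1 and 9 in replicate 2 and averaged 0.402 ± 0.139 CPM (SD, n = 2). MDM2, a ubiquitin ligase that ARF restrains, averaged 8.69 ± 0.105 CPM per kb (SD, n = 2). Of the 7 genes in this list, 5 were expressed. CCND1, a D-type cyclin, was the highest with 167 ± 25.1 CPM per kb (SD, n = 2), and CCND2 the lowest with 1 count in replicate 1 and 2 in replicate 2.

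CROT, the peroxisomal carnitine octanoyltransferase, which hands medium-chain acyl groups on to mitochondria, averaged about the same per kb of exon as ABCB1. It was above ABCB1 in replicate 1 and below it in replicate 2. Located on chromosome 7 from 86974980 to 87029110, it showed 3721 counts in replicate 1 and 3104 in replicate 2, or 161 and 173 CPM. Its level was 33.4 ± 1.57 CPM per kb (SD, n = 2). Over canonical transcripts it was 52.1 ± 2.45 CPM per kb, against 41.3 ± 20.2 CPM per kb for ABCB1 (SD, n = 2 each). The libraries lay close together for CROT. TP53TG1, which starts 171 bases away on the other strand, had 1331 and 920 counts and averaged 8.83 ± 0.757 CPM per kb (SD, n = 2). CROT over TP53TG1 in CPM was 2.80 in replicate 1 and 3.37 in replicate 2. CROT was also above all 13 listed genes of carnitine and peroxisomal fatty acid metabolism, of which 12 were expressed and whose median was 3.55 CPM per kb. The highest of them, the peroxisomal import receptor PEX5, had 16 ± 0.0122 CPM per kb (SD, n = 2). CPT1A, the gate of mitochondrial fatty acid oxidation, averaged 11 ± 0.748 CPM per kb, and CRAT, the carnitine acetyltransferase, 1.44 ± 0.0271 CPM per kb (SD, n = 2 each). CPT1B, a muscle isoform, was the lowest with 7 and 16 counts.

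KIAA1324L was the neighbor whose level followed that of ABCB1 most closely from one library to the other, a likeness seen over 2 libraries only. It encodes a membrane protein related to KIAA1324 and lies on chromosome 7 from 86506222 to 86688970, 443 kb from ABCB1. Its counts were 3927 and 5894, or 170 and 328 CPM, and those of ABCB1, on chromosome 7 from 87132333 to 87342639, were 3236 and 5198, or 140 and 289 CPM. KIAA1324L over ABCB1 in CPM was 1.21 in replicate 1 and 1.13 in replicate 2, although the genes themselves differed 1.92-fold and 2.06-fold between the libraries. The level per kb of KIAA1324L was 30.9 ± 13.8 CPM per kb (SD, n = 2). Its paralog KIAA1324 on chromosome 1 had 46 and 44 counts and averaged 0.242 ± 0.0346 CPM per kb (SD, n = 2).

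RUNDC3B and STEAP4 were the low members of the group, although RUNDC3B overlaps ABCB1 and STEAP4 lies 558 kb away. RUNDC3B, a gene of the RUN domain family on chromosome 7 from 87256864 to 87461611, is read on the strand opposite to ABCB1, and the gene bodies share 85776 bases but no exon. As the strand setting of the counting is not given, reads in the shared stretch cannot be assigned with certainty. RUNDC3B had 135 and 120 counts and a level of 1.33 ± 0.122 CPM per kb (SD, n = 2), above only 16% of expressed genes, although its promoter is as rich in G and C, at 70.8%, as that of CROT. Its paralog RUNDC3A had 5 counts and 0 counts, and 0 counts allow up to 3 counts, or 0.167 CPM in replicate 2, for counting error only. STEAP4, a metalloreductase of the STEAP family on chromosome 7 from 87900207 to 87936209, had 1 count in each library, below the limit of 3 counts that even 0 counts would allow (0.130 CPM in replicate 1). Expression of STEAP4 was thus not detectable at this depth.

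The other STEAP genes were expressed. STEAP1 had 1348 and 851 counts and averaged 34.3 ± 5.12 CPM per kb, and STEAP2, beside it on chromosome 7 and 2.45 Mb from ABCB1, had 1054 and 929 counts and averaged 5.58 ± 0.480 CPM per kb (SD, n = 2 each). STEAP3, the endosomal ferrireductase on chromosome 2, was the highest of the family with 53.1 ± 3.74 CPM per kb (SD, n = 2). All 8 listed genes of STEAP and iron handling were expressed, and ferritin light chain, FTL, led them with 3636 ± 919 CPM per kb (SD, n = 2).

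Set against ABCB1 within each library, the neighbors fell into 3 groups. SRI, DBF4 and C7orf23 were above ABCB1 in both libraries. SRI over ABCB1 per kb was 4.75 in replicate 1 (95% exact binomial interval 4.57 to 4.95) and 2.27 in replicate 2 (2.19 to 2.36). DBF4 over ABCB1 was 2.20 (2.11 to 2.30) and 1.5 (1.45 to 1.56). C7orf23 over ABCB1 was 2.25 (2.14 to 2.35) and 1.10 (1.05 to 1.15), so it was above ABCB1 by a small margin in replicate 2. These intervals cover counting error only, because without molecular identifiers a read does not stand for a separate molecule, and they leave out the spread between libraries.

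CROT and SLC25A40 were above ABCB1 in replicate 1 and below it in replicate 2, with ratios of 1.48 (1.41 to 1.55) and 0.768 (0.734 to 0.803) for CROT, and 1.19 (1.14 to 1.25) and 0.858 (0.821 to 0.895) for SLC25A40. KIAA1324L, DMTF1, RUNDC3B and STEAP4 were below ABCB1 in both. KIAA1324L was nearest to it, at 0.966 in replicate 1 (0.922 to 1.01, an interval that holds 1) and 0.902 in replicate 2 (0.869 to 0.937). DMTF1 was at 0.374 (0.352 to 0.396) and 0.287 (0.273 to 0.301), and RUNDC3B at 0.0567 (0.0474 to 0.0674) and 0.0314 (0.0260 to 0.0376). STEAP4 over ABCB1 was 0.000176 in replicate 1 (4.47e-06 to 0.000984) and 0.00011 in replicate 2 (2.78e-06 to 0.000612), each from 1 count. The median of the 9 ratios was 1.19 in replicate 1 and 0.858 in replicate 2. The length used sets these ratios. In CPM with no length correction 4 mean ratios to ABCB1 lay on the other side of 1, at 0.852 for C7orf23, 0.874 for CROT, 0.812 for SLC25A40 and 1.17 for KIAA1324L. KIAA1324L was then above ABCB1 in both libraries, SLC25A40 below it in both, and C7orf23 above it in replicate 1 only. With canonical transcript lengths the 3 groups held by their ratios, but CROT in replicate 2 was at 0.970 (0.927 to 1.01), an interval that holds 1. With these lengths C7orf23 reached 5.60 and 2.74 times ABCB1, SRI 8.25 and 3.95 times, and DMTF1 0.766 and 0.588 times.

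**Figure D2:**
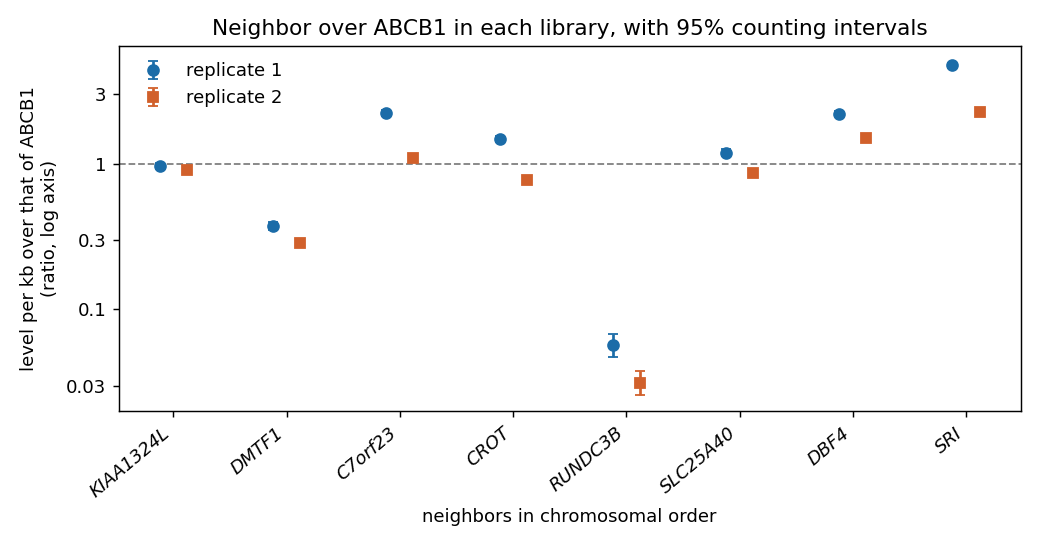
Ratio of the level per kb of each neighbor to that of ABCB1, on a log axis, with 95% exact binomial intervals; circles are replicate 1, squares replicate 2, and the dashed line marks equality. Only SRI, DBF4 and C7orf23 lie above the line in both libraries, and STEAP4, with 1 count in each library, is not drawn.

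None of the neighbors was called higher in replicate 1, and 5 of the 8 tested were called higher in replicate 2, as was ABCB1, when each gene was compared between the libraries by edgeR's exact binomial test, adjusted by the method of Benjamini and Hochberg. This test compares the libraries and not conditions, and it called 57.7% of 13744 genes, 30.1% as higher in replicate 2 and 27.6% as higher in replicate 1, so that a call is common in these data. KIAA1324L was 1.92-fold higher in replicate 2 (adjusted p = 7.95e-225 in edgeR), DMTF1 1.58-fold (adjusted p = 3.42e-45), SLC25A40 1.48-fold (adjusted p = 3.2e-55) and DBF4 1.40-fold (adjusted p = 6.84e-68). CROT differed 1.07-fold (adjusted p = 0.0124), and ABCB1 2.06-fold (adjusted p = 6.32e-234). C7orf23 with 1.01-fold (adjusted p = 0.824), RUNDC3B with 1.14-fold (adjusted p = 0.406) and SRI with 0.985-fold (adjusted p = 0.399) did not pass in the exact binomial test of edgeR, and STEAP4 had too few counts to be tested. A different edgeR test, the exact test with a common dispersion, took in the dispersion between the libraries, a biological coefficient of variation of 22.3%. It called 0 neighbors after adjustment. That dispersion was estimated from the same 2 libraries, so that their difference already counts as spread in this test. At an unadjusted p below 0.05 stood 1 neighbor, KIAA1324L (exact test p = 0.0413). In that test ABCB1 had an unadjusted p of 0.0246 and an adjusted p of 0.703, and 40 genes in all were called.

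The genes listed with the neighbors were read in the same edgeR comparison, in which 30.1% of all genes were called higher in replicate 2 and 27.6% higher in replicate 1. Of the 14 replication genes, 8 were called higher in replicate 2 and 2 higher in replicate 1. Of the 8 genes of glutathione and mitochondrial transport, 0 were called higher in replicate 2 and 7 higher in replicate 1 (GCLC was not called), whereas SLC25A40 itself was called higher in replicate 2. These 7 genes had exon lengths of 1.84 to 6.17 kb, against a median of 5.51 kb over expressed genes, and the part of length in their calls was not tested. The calcium list had 4 higher in replicate 2 and 5 higher in replicate 1 out of 10 tested, the iron list 4 and 3 out of 8, the fatty acid list 3 and 3 out of 13, and the ARF list 1 and 2 out of 6.

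The libraries also differed by gene length, with long genes higher in replicate 2, and the library ratio of each neighbor was therefore read beside the ratio that a smooth curve gave for its exon length. All 8 neighbors with a ratio lay above the curve, as did 49.9% of all expressed genes, and their median distance from it was 0.31 on the log2 scale. Such values were not confined to the neighbors. Between 2 and 5 Mb from ABCB1, 14 of 20 expressed genes also lay above the curve, and the median of the 20 was 0.10 above it. KIAA1324L was 0.75 above the curve and ABCB1 0.94, and 96.2% and 98% of genes had lower values, with genes below the curve counted as lower. SLC25A40 was 0.56, DBF4 0.52 and DMTF1 0.40 above it. RUNDC3B was 0.21, C7orf23 0.17, CROT 0.10 and SRI 0.04 above it. Of the other expressed genes within 1 Mb, ADAM22 was 1.35 above the curve, more than ABCB1, while ABCB4 lay at -0.06 and TP53TG1 at -0.26, below it. Distance from ABCB1 along the chromosome did not order these values, since CROT, 103 kb away, lay near the curve and KIAA1324L, 443 kb away, lay far from it. With canonical transcript lengths all 8 neighbors stayed above the curve, but their order changed. DMTF1 was then the farthest neighbor at 0.58 and KIAA1324L was at 0.53, both below ABCB1 at 0.77. C7orf23 was then at 0.39 and RUNDC3B at 0.06.

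**Figure D3:**
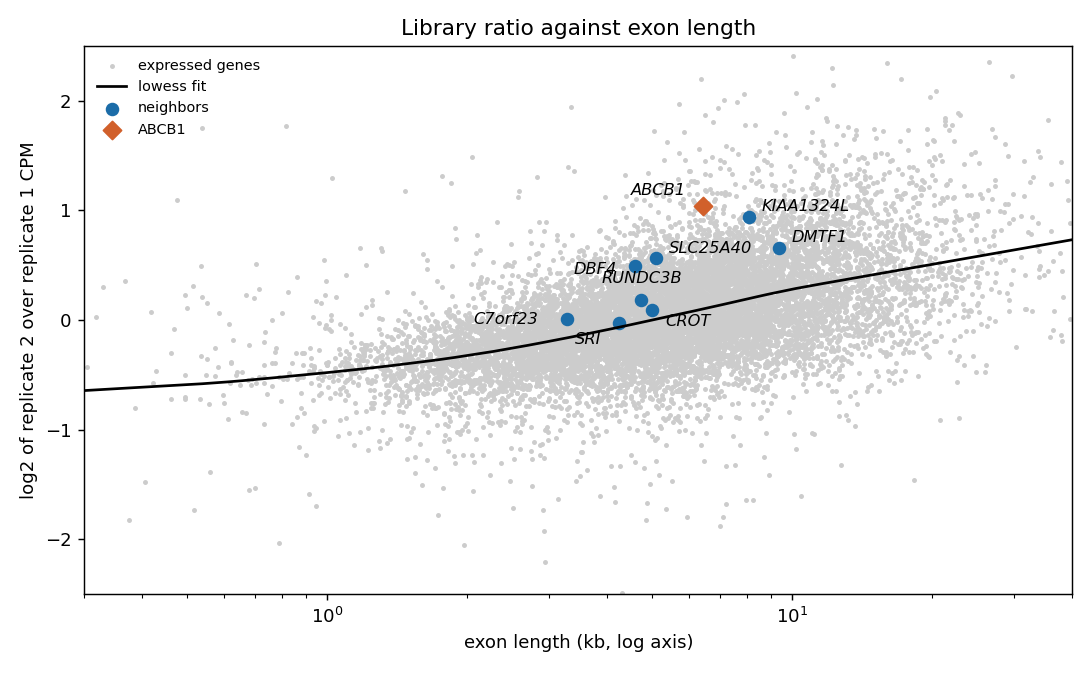
Log2 ratio of replicate 2 over replicate 1 CPM against exon length in kb on a log axis, for expressed genes (gray), 8 neighbors (circles) and ABCB1 (diamond), with the smooth curve in black; 48 genes lie outside the plotted range. All 8 neighbors lie on or above the curve, and with these exon lengths KIAA1324L lies farthest above it among them, below ABCB1.

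Genes around ABCB1 were higher in median level than genes further out on the chromosome, and none of the 2 genes between 1 and 2 Mb away was expressed. Within 1 Mb of ABCB1, 11 of 13 other genes in the files (84.6%) were expressed, all but STEAP4 and GRM3, with a median of 30.9 CPM per kb and an interquartile range of 5.08 to 41.4 CPM per kb. These 11 were also all of the genes within 0.5 Mb, and 11 of 15 (73.3%) were expressed within 2 Mb. Between 2 and 5 Mb away, 20 of 22 genes were expressed with a median of 2.74 CPM per kb. Between 5 and 10 Mb, 20 of 43 genes were expressed, with a median of 7.27 CPM per kb. Over the rest of chromosome 7 the median was 6.27 CPM per kb in 503 of 898 genes, and over all matched genes it was 6.39 CPM per kb in 11865 of 21205. None of these medians includes ABCB1, and no test was made, since genes are not replicates. Together the 9 neighbors held 86.8% and ABCB1 8.91% (95% exact interval 8.62 to 9.21) of the counts within 1 Mb in replicate 1, and 83% and 13.9% (13.5 to 14.2) in replicate 2.

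Not every gene in the interval was high. ABCB4, the paralog of ABCB1 that exports phosphatidylcholine into bile, lies 22.6 kb from it. It had 171 and 145 counts and 1 ± 0.0587 CPM per kb (SD, n = 2), far less than ABCB1. Per kb of exon it was also below RUNDC3B. In CPM with no length correction ABCB4 was above RUNDC3B, at 7.74 against 6.27 on average. ADAM22, a gene of neurons between DBF4 and SRI, had 32 and 83 counts and 0.220 ± 0.167 CPM per kb (SD, n = 2), although SRI and DBF4 on either side were the highest neighbors. GRM3, a glutamate receptor gene 638 kb away, had 11 and 7 counts and averaged 0.0968 CPM per kb. Further out on the side of STEAP4, ZNF804B had 1 and 0 counts, and C7orf62 had none in either library. CYP51A1, an enzyme of cholesterol synthesis 4.37 Mb away, reached 120 CPM per kb on average, so that a level like that of SRI was also found outside the interval.

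**Figure D4:**
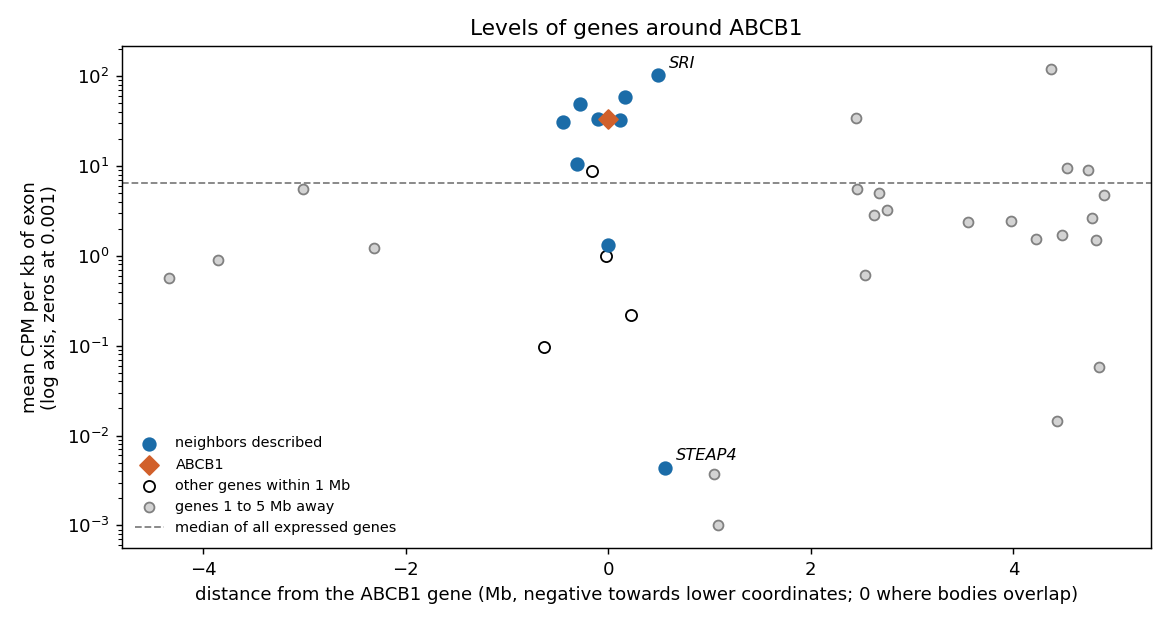
Mean CPM per kb of exon, on a log axis with zeros drawn at 0.001, against distance from the ABCB1 gene in Mb; filled circles are the 9 neighbors, the diamond is ABCB1, open circles are 4 other genes within 1 Mb, gray points are genes 1 to 5 Mb away, and the dashed line is the median of 6.39 CPM per kb over all expressed genes. Of the 9 neighbors, 7 lie above the line, and RUNDC3B and STEAP4 lie below it.

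Markers of the cell line were checked in the same libraries. ESR1 had 11 and 9 counts, PGR had 2 and 0, and ERBB2 averaged 99.7 ± 6.56 CPM, while the mesenchymal genes VIM and CD44 averaged 7542 and 1148 CPM. Of 7 markers of leukocytes, endothelium, blood and liver, CD3E, HBB and ALB were at 0 in both libraries, CDH5 had 1 and 0 counts, and PTPRC (48 and 31 counts) and PECAM1 (24 and 20) passed the mark for expression. The 7 markers summed to 3.17 (replicate 1) and 2.84 CPM (replicate 2), below RUNDC3B, the lowest expressed neighbor, and their part in the levels was not tested.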

How the data were processed

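Bulk RNA-seq was measured in 2 libraries of doxorubicin-resistant SUM159 monolayer cells, made from polyadenylated RNA with a directional kit. After HISAT2 mapping to hg19 and HTSeq counting, the authors deposited 1 file per library with whole-number read counts for each symbol, not normalized. The submitters' processing notes also list FastQC and deepTools. For tool versions, annotation and strandedness, the status is: not given in the sources used here. Extraction is described as RNeasy in the study's methods and as TRI reagent in the sample labels.

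CPM were computed from library totals, and 1 count is 0.0434 CPM in replicate 1 and 0.0556 CPM in replicate 2. Of 23368 symbols, 21206 (90.7%) were matched to GENCODE 44 mapped to GRCh37, 1895 of them through older symbols, among them C7orf23 and KIAA1324L. GRCh37 is the assembly that hg19 denotes. Exon length was the union of all annotated exons. Promoter sequences and windows are from RefSeq on GRCh38.p14, where all 9 neighbors had an entry, and were not converted between builds. The motif TATAAA was searched as well and was found before 1 of the starts of SRI, and in 10.8% of all promoters. Genes were called expressed at a mean count of 20 or more.

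The libraries were compared with the exact binomial test of edgeR over genes with at least 10 counts in all and Benjamini-Hochberg adjustment at 0.05, and a lowess curve with a span of 0.5 described the library ratio against exon length. Both were tried on simulated data with known answers. For the binomial test the simulated counts held counting error only, with no dispersion between libraries, so they do not show how it behaves on these libraries. With a single condition, no test between conditions was made. Named genes are the 9 neighbors, ABCB1, other genes within 1 Mb, and from each partner list its highest, its lowest and the direct partners; MDM2, CLSPN, ATP2A2, RYR1, RYR2, ZNF804B, C7orf62 and CYP51A1 fall outside this rule and were chosen after their values were seen. The members and lists were chosen with earlier results of these data known. Some listed genes are not reported here. Alternatives covered scaling, filters, the dispersion, exon length, window size and each library left out. Python 3.11.15, numpy 2.4.6, pandas 2.3.3, scipy 1.17.1, statsmodels 0.14.6, matplotlib 3.10.9, R 4.3.3, edgeR 4.0.16 and DESeq2 1.42.0 (size factors only) were used.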

Additional observations from a re-analysis of the deposited data

How the results depend on the processing

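Of 38 summary values recomputed with both libraries kept, 33 stayed within their limits. Without one of the replicates, the number of neighbors above ABCB1 per kb was 3 to 5 (3 without replicate 1), against 5 by the mean ratio of both, since CROT and SLC25A40 were below ABCB1 in replicate 2, and the median level of expressed genes within 1 Mb was 21.1 to 34.6 CPM per kb (21.1 without replicate 2), against 30.9 CPM per kb. With no correction for length, 3 neighbors were above ABCB1. Within 0.5 Mb, 100% of genes were expressed, against 84.6% within 1 Mb. In edgeR's exact test with a common dispersion, a different test from the binomial one, 40 genes were called in place of 7930. It called 0 neighbors in place of 5, and its dispersion was estimated from the 2 libraries compared. Counts called under other scalings and filters ran from 7792 to 7958. Of 128 values of single genes recomputed with both libraries kept, 111 stayed within their spread or on their side of the threshold, 11 ratios to ABCB1 moved with the length used, and 6 calls were lost with the dispersion. The distances from the length curve are counted among the 111, although they shifted with the length used. With canonical transcripts that of RUNDC3B went from 0.21 to 0.06 and that of C7orf23 from 0.17 to 0.39. Canonical transcript lengths were added after seeing the data. With 2 libraries, a mean moves by less than 1 SD when either is left out, whatever the data, so levels and ratios without a replicate were not counted. Depth limits STEAP4, RUNDC3A and the other genes given by a few counts. No paired analysis was possible because there is a single group.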
